A study of Mus musculus with 8 samples.

Results

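The genes described here are the non-imprinted genes of a pair of segments of mouse chromosome 12, one from Bcl11b to Mark3, which surrounds the imprinted Dlk1-Meg3 locus, and one from Aldh6a1 to Gpatch2l. They were chosen because RNA from both segments had been seen at reduced levels in menin-null mouse embryonic stem cells (mESCs) relative to wild-type (wt) ones, so their difference in mESCs is given as a description and carries no test. Of 45 genes listed, 44 were measured among 18193 genes of the array, 21 of 22 in the first segment and 23 in the second. Traf3 was not analysed here. Each gene was read from the probe set with the highest mean over all arrays. Of the 44 genes, 41 had a mean log2 signal of at least 7 in some group, the level taken here as expressed. The others were Degs2, Ltbp2 and Flvcr2.

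RNA was hybridised to 8 Affymetrix Mouse Genome 430 2.0 arrays in 4 groups of 2 independent cultures. Menin-null pancreatic islet-like endocrine cells (PILECs) and wt PILECs were differentiated in culture, by LIF withdrawal, embryoid body formation and stepwise media, from menin-null mESCs (Men1-KO, line 3.2N) and wt mESCs (line TC-1). All cells had the 129S6/SvEvTac background, and the mESCs were grown on irradiated feeder fibroblasts and then freed of them. Each genotype was 1 line, so genotype and line cannot be told apart, and the p-values measure only the spread between cultures of a line.

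Menin, encoded by Men1, is a subunit of the MLL1 and MLL2 histone methyltransferase complexes, which place trimethylation on lysine 4 of histone H3 at active promoters. The Dlk1-Meg3 locus is imprinted, with noncoding RNAs such as Meg3 made from the maternal chromosome and Dlk1 from the paternal one. The genes on either side of that locus are expressed from both parental copies and have unrelated functions, many of them needed in every cell: protein synthesis, transport along microtubules, mitochondrial metabolism and DNA repair.

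The targeted gene followed its label. Men1 averaged 7.99 in menin-null and 9.99 in wt PILECs, and 7.79 in menin-null and 9.94 in wt mESCs (log2 signal, n = 2 each). The mean of 5 mESC markers was 13.07 to 13.09 in menin-null mESC arrays and 13.06 to 13.10 in wt mESC arrays. In the PILEC groups the islet hormone genes Gcg and Iapp and the islet factor Pdx1 had means under 7, and Ins2 averaged 7.37 in menin-null and 7.23 in wt PILECs. Of the 6 islet markers measured, the 3 with means of at least 7 in both PILEC groups were Ins2, Chga and Neurod1. In mESCs Ins2 averaged 7.19 in menin-null and 6.82 in wt cells. Neurod1 averaged 8.68 in menin-null and 8.95 in wt PILECs, below its 8.84 and 9.40 in mESCs. Chga averaged 9.63 and 9.25 in PILECs, above its 8.03 and 7.87 in mESCs. Across genes, which are not replicates, the arrays of a pair correlated at 0.993 to 0.997, lowest for the menin-null mESCs.

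Of the 44 genes, 37 had a promoter in the RefSeq table (assembly GRCm38.p6), with 47 windows of 250 bases ending at a start site. The windows held a median of 18 CG dinucleotides, against 6 over all 32851 windows of the table. The table also covers genes not expressed in these cells, whereas 41 of the 44 genes were expressed. No comparison with expressed genes alone was made, here or for the share given next. A window that overlapped that of a gene on the opposite strand was found for 11 of the 37 genes (29.7%), against 10.8% of all genes in the table. In 3 cases both genes of such a head-to-head pair belonged to the segments: Isca2 with Npc2, Ccnk with Setd3, and Aldh6a1 with Lin52. Their windows are printed 5′ to 3′ on the strand of the gene named, with the bases shared by the partner's window in capitals. They are printed because the partners' windows overlap and their RNA can be set side by side. The overlap is one of fixed windows. For Ccnk and Setd3, and for Aldh6a1 and Lin52, it lies at the end far from both start sites. Only for Isca2 and Npc2 does it reach both start sites.

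Isca2 lies at chr12:84773020-84773269 on the plus strand and Npc2 at chr12:84773113-84773362 on the minus strand, with 157 bases shared.
Isca2: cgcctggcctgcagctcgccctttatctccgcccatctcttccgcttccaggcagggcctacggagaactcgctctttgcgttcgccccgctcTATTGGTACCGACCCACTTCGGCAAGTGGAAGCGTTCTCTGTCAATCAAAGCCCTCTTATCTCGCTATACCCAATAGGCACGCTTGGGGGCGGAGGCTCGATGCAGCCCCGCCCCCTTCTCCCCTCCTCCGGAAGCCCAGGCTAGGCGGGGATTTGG
Npc2: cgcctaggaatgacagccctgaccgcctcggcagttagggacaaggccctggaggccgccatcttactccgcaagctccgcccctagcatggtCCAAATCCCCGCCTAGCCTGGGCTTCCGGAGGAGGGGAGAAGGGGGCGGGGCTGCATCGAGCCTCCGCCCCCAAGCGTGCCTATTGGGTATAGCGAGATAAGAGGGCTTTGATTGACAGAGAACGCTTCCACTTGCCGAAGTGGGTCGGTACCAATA
Ccnk lies at chr12:108179488-108179737 on the plus strand and Setd3 at chr12:108179285-108179534 on the minus strand, with 47 bases shared.
Ccnk: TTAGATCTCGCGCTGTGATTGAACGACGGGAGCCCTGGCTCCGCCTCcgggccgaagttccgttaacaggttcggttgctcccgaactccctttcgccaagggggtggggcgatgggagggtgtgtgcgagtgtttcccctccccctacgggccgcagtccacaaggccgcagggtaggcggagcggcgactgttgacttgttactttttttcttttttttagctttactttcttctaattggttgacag
Setd3: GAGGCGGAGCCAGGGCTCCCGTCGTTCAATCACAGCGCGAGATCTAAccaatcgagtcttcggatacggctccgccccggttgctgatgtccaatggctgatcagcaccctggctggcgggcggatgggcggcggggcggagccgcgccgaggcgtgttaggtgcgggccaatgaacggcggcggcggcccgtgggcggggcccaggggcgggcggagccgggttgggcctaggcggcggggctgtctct
Aldh6a1 lies at chr12:84451025-84451274 on the minus strand and Lin52 at chr12:84451258-84451507 on the plus strand, with 17 bases shared.
Aldh6a1: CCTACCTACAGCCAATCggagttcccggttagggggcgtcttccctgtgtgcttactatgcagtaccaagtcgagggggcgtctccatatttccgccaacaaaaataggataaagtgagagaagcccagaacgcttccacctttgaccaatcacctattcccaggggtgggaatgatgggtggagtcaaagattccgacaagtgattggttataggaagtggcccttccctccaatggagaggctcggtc
Lin52: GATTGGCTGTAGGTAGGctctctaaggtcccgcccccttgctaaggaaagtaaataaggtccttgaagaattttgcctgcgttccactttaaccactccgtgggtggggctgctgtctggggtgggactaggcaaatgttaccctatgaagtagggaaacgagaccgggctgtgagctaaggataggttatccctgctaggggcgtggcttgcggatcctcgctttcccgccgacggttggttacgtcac

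Between menin-null and wt mESCs, Isca2 and Npc2 differed by -0.60 and -0.58 on the log2 scale, and Setd3 and Ccnk by -0.57 and -0.48. In the third pair Aldh6a1 differed by -1.26 and Lin52 by -0.28. These 3 pairs were chosen after their values were seen and on the contrast that chose the genes, the first 4 values are near the segment medians given next, and nothing is drawn from them about shared promoter sequence.

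In mESCs, 39 of the 44 genes had a lower mean in menin-null than in wt cells, with a median difference of -0.63 on the log2 scale. The median was -0.66 in the segment of Bcl11b to Mark3 and -0.60 in that of Aldh6a1 to Gpatch2l, and 27 genes differed by -0.5 or less. Both menin-null arrays lay below both wt arrays for 36 genes, above them for 0 genes, and the arrays overlapped for 8. Over all genes, 24.9% were lower and 24.1% higher by the same comparison, which the choice of the segments used. Against the wt mean, the median gene was at -0.67 in menin-null mESC array 1 and at -0.56 in menin-null mESC array 2. Both arrays entered the choice of the genes, so these values are no replication of the difference. In bulk RNA, fewer cells of a type and less RNA per cell cannot be told apart.

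**Figure D1:**
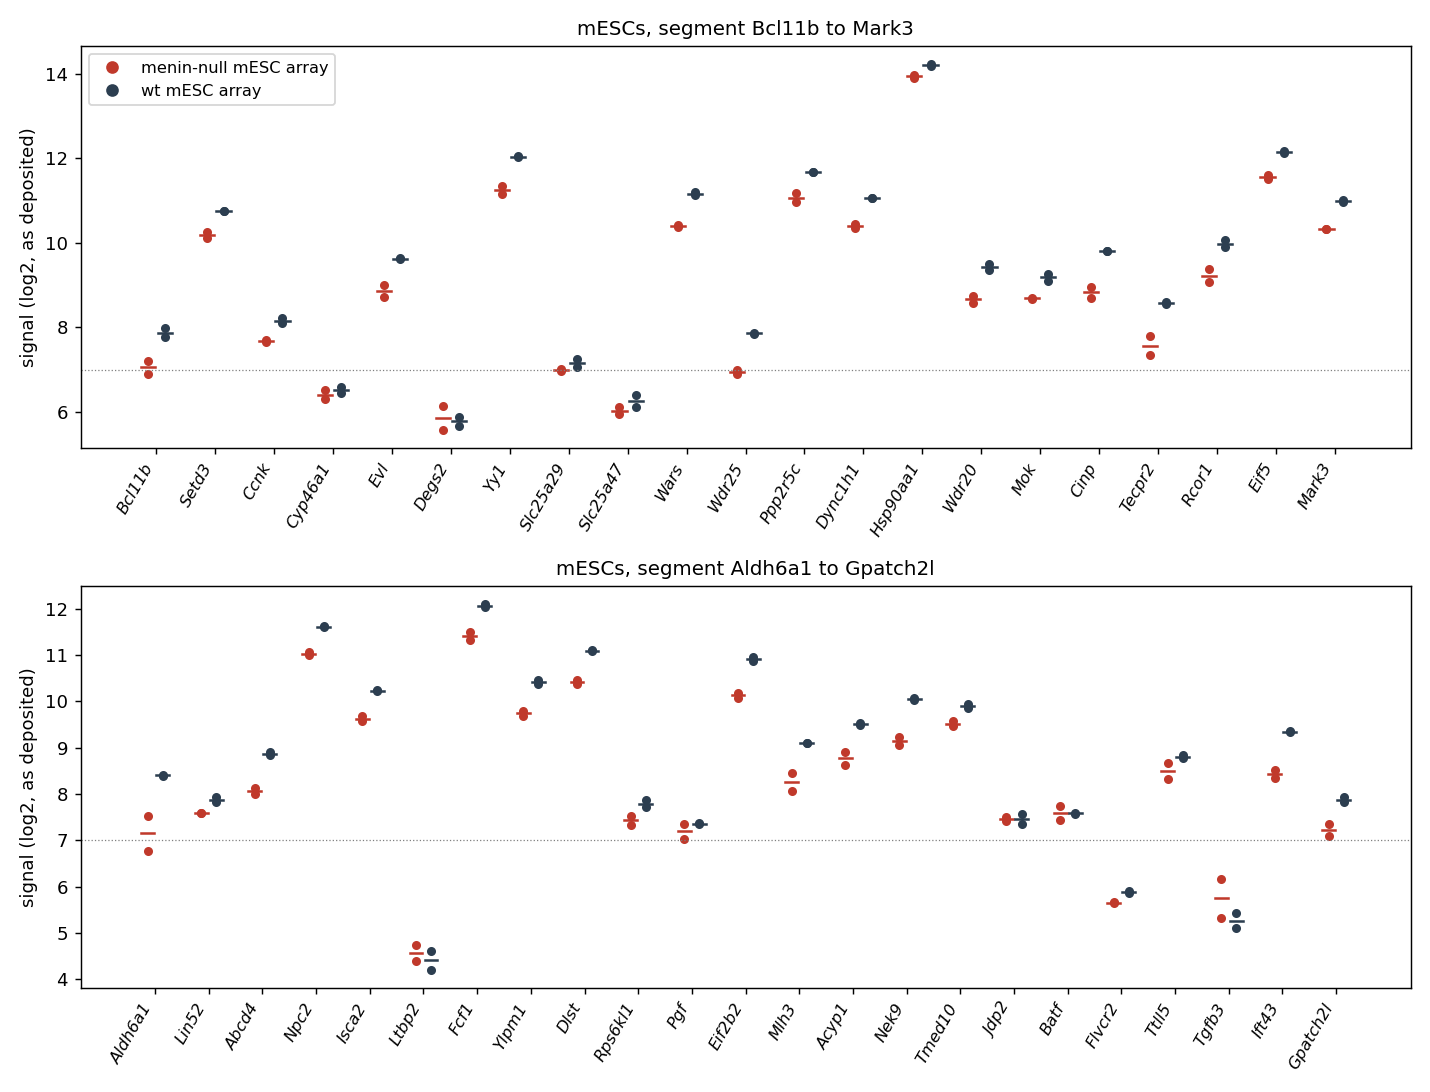
Log2 signal of the 44 genes in the mESC arrays, in chromosome order, with the segment of Bcl11b to Mark3 above and that of Aldh6a1 to Gpatch2l below (points: menin-null arrays left, wt arrays right; short lines: means; dotted line: 7). The menin-null points lie below the wt points for 36 genes, and the genes whose points overlap are mostly those of low signal.

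The edges of the segments were set by these mESC values, which are given here as a description. Bcl11b, the first gene of the first segment, had 7.21 and 6.902 in menin-null mESCs, against 7.98 and 7.77 in wt mESCs. The nearest expressed gene outside it, the kinase gene Vrk1, had 11.15 and 11.41 in menin-null against 11.20 and 11.13 in wt mESCs, and its arrays overlapped. At the other end Mark3, a microtubule affinity-regulating kinase, had 10.32 and 10.33 in menin-null against 11.02 and 10.97 in wt mESCs, a difference of -0.67, whereas the next expressed gene, the creatine kinase Ckb, differed by 0.02.

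In the second segment the first gene, Aldh6a1, differed by -1.26. The expressed gene before it, Rnf113a2, had 9.19 and 9.29 in menin-null against 9.37 and 9.38 in wt mESCs, a smaller difference of -0.13 that still left both menin-null arrays below both wt arrays. Its last gene, Gpatch2l, had 7.10 and 7.35 in menin-null against 7.94 and 7.82 in wt mESCs, a difference of -0.66. The next expressed gene, the orphan nuclear receptor gene Esrrb, differed by 0.24 and was higher in both menin-null arrays. The medians of the 15 expressed genes on either side were -0.00 before and -0.00 after the first segment, and -0.03 before and 0.08 after the second. Over the 374 expressed genes of chromosome 12 outside both segments the median was -0.02, and 15 of them (4.01%) differed by -0.5 or less.

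**Figure D2:**
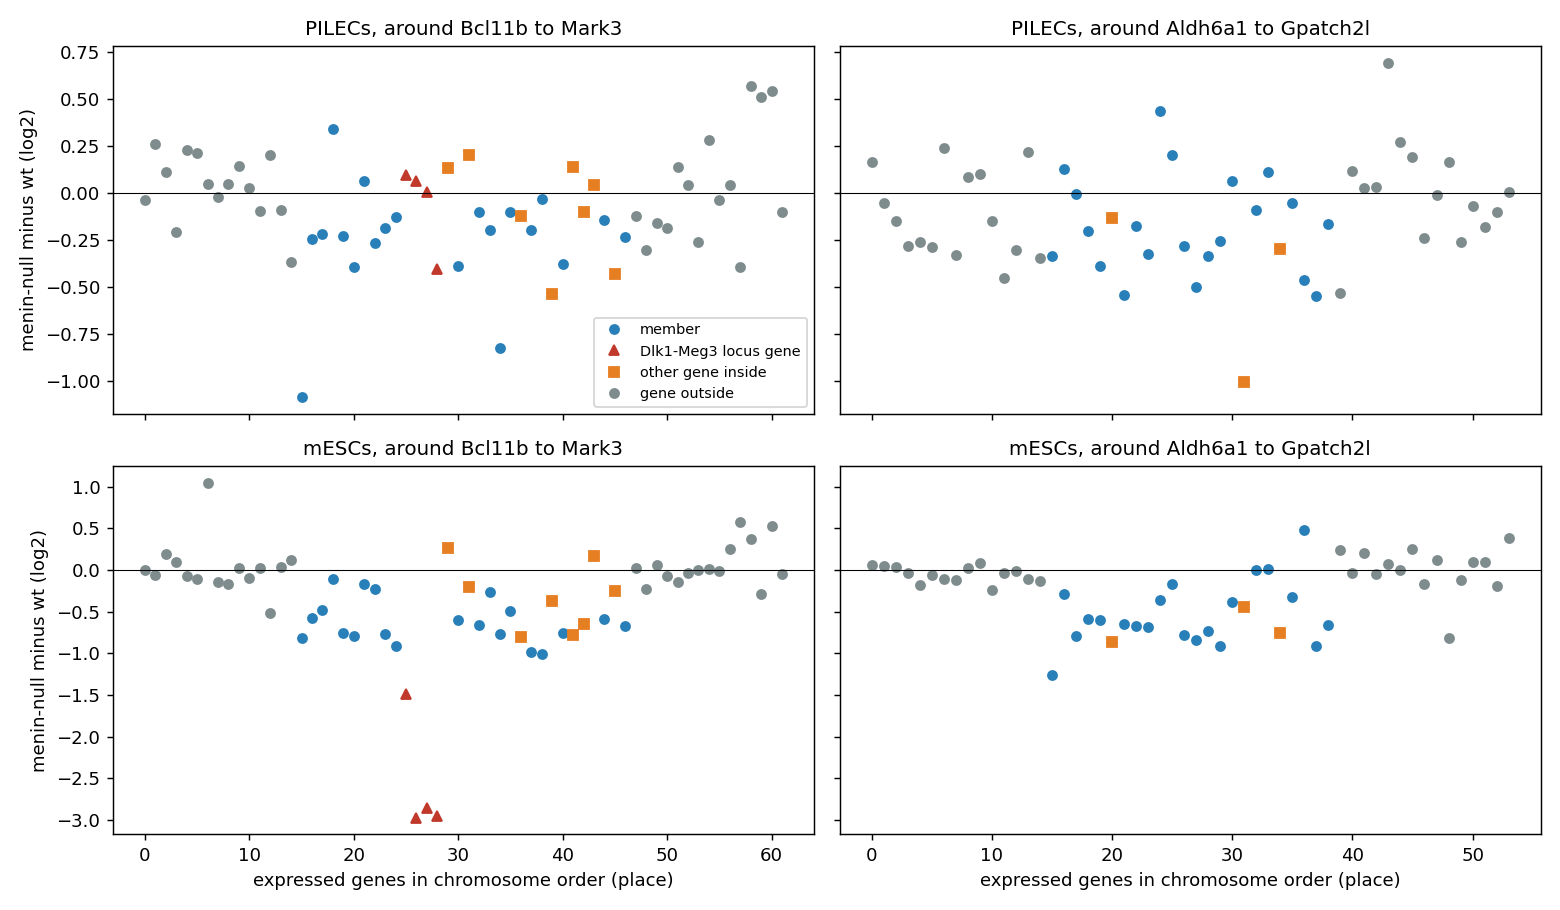
Menin-null minus wt difference (log2) of expressed genes in chromosome order, for each segment with 15 expressed genes on either side, in PILECs (top) and mESCs (bottom). In mESCs most of the 41 expressed genes of the segments (blue) lie below 0, down to -1.26, most outside genes (grey) near 0 and the other genes inside (orange squares) from -0.86 to 0.26, with the Dlk1-Meg3 locus genes (red) down to -2.97; in PILECs the blue and grey points overlap.

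Inside the first segment 4 genes of the imprinted Dlk1-Meg3 locus differed more than their non-imprinted neighbours in mESCs. Dlk1 differed by -1.49, Meg3 by -2.97, Rian by -2.86 and Mirg by -2.95, against -1.01 for Tecpr2, the lowest of the non-imprinted genes of that segment. Dio3os, a noncoding RNA at the far end of the locus, differed by 0.26 in mESCs with overlapping arrays and is counted here with the other genes inside. In PILECs 3 of the 4 locus genes, Dlk1, Meg3 and Rian, differed by 0.00 to 0.09. Mirg differed by -0.41 there and passed the test as lower (SE 0.0895, adjusted p = 0.0388 by limma), as did 4.42% of all genes.

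The counts by role that follow divide up the mESC count of genes without overlap given above. The choice of the segments used that contrast, so the counts show nothing particular to a role. Among genes of transcription and chromatin, 6 of 8 were lower in menin-null mESCs with no overlap of the arrays. Yy1, a zinc finger factor that both activates and represses, had 11.16 and 11.33 in menin-null against 12.02 and 12.05 in wt mESCs, a difference of -0.79. Bcl11b, a zinc finger factor best known for T cell commitment, differed by -0.82, and Rcor1, the CoREST corepressor, by -0.76. Ylpm1, a nuclear protein, differed by -0.67, Ccnk, the cyclin partner of CDK12 and CDK13, by -0.48, and Lin52, a subunit of the DREAM complex, by -0.28. The exceptions were a pair of neighbouring AP-1 family genes. Jdp2, a repressor of that family, differed by 0.01, and Batf, a lymphocyte factor, had 7.74 and 7.45 in menin-null against 7.58 and 7.60 in wt mESCs, a difference of 0.01 with overlapping arrays.

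All 5 genes of translation, protein folding and rRNA processing were lower with no overlap. Eif2b2, a subunit of the exchange factor that recycles eIF2, differed by -0.78, Wars, the tryptophanyl-tRNA synthetase, by -0.77, Fcf1, needed for processing of the small-subunit rRNA, by -0.65, and Eif5, which acts in start codon selection, by -0.58. Hsp90aa1, a cytosolic HSP90 chaperone, differed least of them, by -0.27, with 13.98 and 13.89 in menin-null against 14.18 and 14.22 in wt mESCs.

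Both genes of genome maintenance were among the lowest. Cinp, a CDK2-interacting protein of DNA replication and the ATR checkpoint, had 8.70 and 8.96 in menin-null against 9.82 and 9.81 in wt mESCs, a difference of -0.98. Mlh3, a MutL homologue of mismatch repair and meiotic crossing over, had 8.06 and 8.46 in menin-null against 9.10 and 9.10 in wt mESCs, a difference of -0.84. The wt arrays of both genes lay close together and well above both menin-null arrays.

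The 8 genes of cytoskeleton, motors, cilium and membrane traffic were all lower, with 0 overlaps and a median of -0.62. Tecpr2, an autophagy protein, had 7.34 and 7.79 in menin-null against 8.55 and 8.60 in wt mESCs, a difference of -1.01. Ift43, a subunit of the intraflagellar transport complex A of cilia, had 8.35 and 8.51 in menin-null against 9.36 and 9.34 in wt mESCs, a difference of -0.91. The menin-null means were thus 2.02-fold lower for Tecpr2 and 1.89-fold lower for Ift43, and the arrays of both genes were well separated. Evl, an Ena/VASP regulator of actin, differed by -0.76, Dync1h1, the heavy chain of cytoplasmic dynein, by -0.66, Setd3, the actin histidine methyltransferase, by -0.57, and Tmed10, a cargo receptor of the early secretory pathway, by -0.38. Ttll5, a tubulin polyglutamylase, differed by -0.32 and Flvcr2, a membrane transporter with means under 7, by -0.22.

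The kinase, phosphatase and signalling genes, 5 of 5, were lower without overlap. Nek9, a mitotic kinase, had 9.05 and 9.22 in menin-null against 10.08 and 10.02 in wt mESCs, a difference of -0.91. Mark3 differed by -0.67, Ppp2r5c, a B56-type regulatory subunit of protein phosphatase 2A, by -0.60, Mok, a MAP kinase relative, by -0.49, and the kinase-like gene Rps6kl1 by -0.36.

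In mitochondria and metabolism 7 of 7 were lower, 6 of them without overlap. Aldh6a1, the methylmalonate semialdehyde dehydrogenase of valine breakdown, had 6.76 and 7.54 in menin-null against 8.39 and 8.42 in wt mESCs. Its difference of -1.26 was the lowest of the 44 genes, and its menin-null arrays lay further apart than its wt arrays. Abcd4, a lysosomal cobalamin transporter, had 8.13 and 8.01 in menin-null against 8.90 and 8.84 in wt mESCs, a difference of -0.80. The acylphosphatase Acyp1 differed by -0.74, Dlst, the succinyltransferase of the oxoglutarate dehydrogenase complex, by -0.68, and Isca2, of mitochondrial iron-sulphur cluster assembly, by -0.60. The carriers of the mitochondrial inner membrane differed less. Slc25a47 differed by -0.23, and Slc25a29, which carries basic amino acids, had 7.02 and 6.96 in menin-null against 7.06 and 7.25 in wt mESCs, a difference of -0.16.

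The lipid genes and the growth factor and matrix genes held most of the exceptions. Npc2, a lysosomal cholesterol-binding protein, differed by -0.58 without overlap. Cyp46a1, the cholesterol 24-hydroxylase of brain, had 6.31 and 6.51 in menin-null against 6.45 and 6.59 in wt mESCs, a difference of -0.11 with overlap. Degs2, a sphingolipid hydroxylase, had 6.14 and 5.58 in menin-null against 5.88 and 5.67 in wt mESCs, a difference of 0.09. All of these Cyp46a1 and Degs2 values were under 7.

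The 3 growth factor and matrix genes all had overlapping arrays. Tgfb3, a transforming growth factor beta ligand, had 6.17 and 5.33 in menin-null against 5.11 and 5.43 in wt mESCs, a difference of 0.48 that was the highest of the 44 genes. Ltbp2, an extracellular matrix protein, had 4.74 and 4.40 in menin-null against 4.61 and 4.21 in wt mESCs, a difference of 0.16. Pgf, a VEGF family ligand, differed by -0.16. Tgfb3 and Ltbp2 were thus below 7 on every mESC array.

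The remaining 3 genes were lower without overlap. Wdr25, a WD40 repeat protein, had 6.897 and 7.003 in menin-null against 7.84 and 7.88 in wt mESCs, a difference of -0.91. Wdr20, a WD40 cofactor of deubiquitinating enzymes, differed by -0.77 and Gpatch2l by -0.66.

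The exceptions were the genes of low signal. The 29 genes with a wt mESC mean of 8 or more were all lower, all without overlap, with a median of -0.68 and a range of -1.26 to -0.27. The 9 genes with a wt mean from 7 to 8 had a median of -0.28, and the 6 under 7 a median of -0.01. Across the 44 genes the mean mESC level and the difference correlated with r = -0.48 and rho = -0.41, against r = 0.068 over the 374 expressed genes of the chromosome outside the segments. These correlations are descriptions across genes read from the same arrays on both axes, and a probe set's signal also depends on its sequence.

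**Figure D3:**
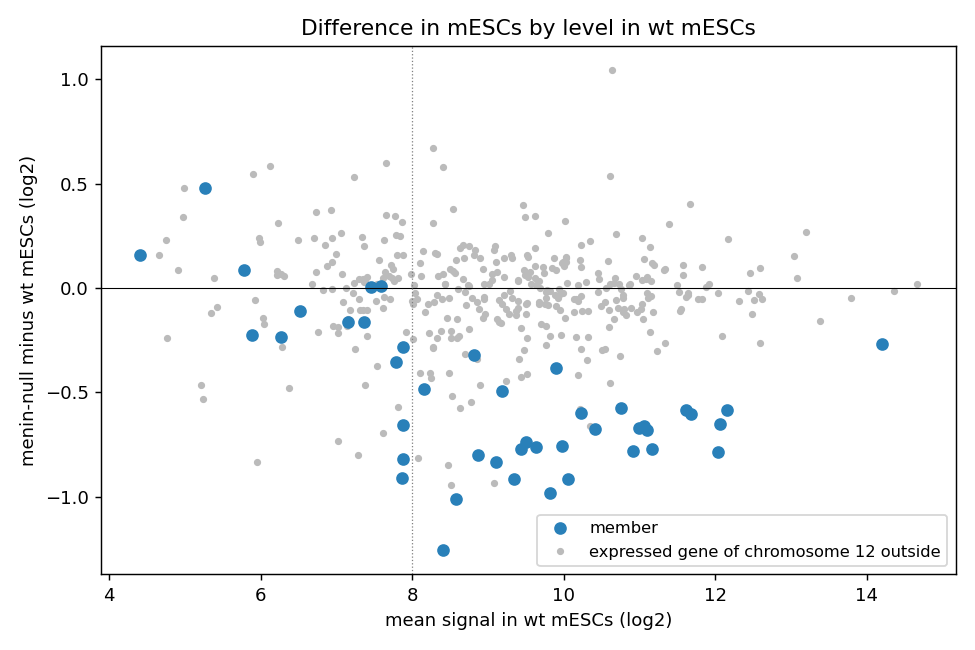
Menin-null minus wt difference in mESCs (log2) against the mean log2 signal in wt mESCs, for the 44 genes of the segments (blue) and 374 expressed genes of chromosome 12 outside them (grey); the dotted line is at 8. To the right of that line all 29 blue points are below 0, whereas the grey points spread around 0 at every level.

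Other probe sets of the same genes gave a smaller difference of the same direction in mESCs. There were 55 further probe sets for 23 of the genes, of which 48 were lower in menin-null mESCs, with a median of -0.43. Of these, 38 with a mean of at least 7 had a median of -0.57 and the 17 dimmer ones a median of -0.13. The probe sets did not all agree for Bcl11b, whose 3 further probe sets differed by -0.85, 0.33 and 0.03 in mESCs.

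In PILECs, whose arrays the choice of the genes did not use, 6 of the 44 genes fell in menin-null cells and 0 rose. The threshold was an adjusted p under 0.05 (limma, Benjamini-Hochberg adjustment over 18193 genes). Over all genes 4.42% fell and 2.26% rose, 6.68% in all. That fit took its variances from all 8 arrays, so the mESC arrays that chose the genes entered these p-values. Fitted on the 4 PILEC arrays alone, 4 of the 44 genes fell and 0 rose, with 1030 of all genes called. Isca2 and Dlst did not pass there. At an unadjusted p under 0.05 in the fit on all 8 arrays, 17 of the 44 were lower and 2 higher. Of all 18193 genes, 4230 passed that cut-off in either direction. The median difference was -0.20, with -0.20 in the first segment and -0.18 in the second, and 35 of the 44 genes were below 0. The median of the 374 expressed genes of the chromosome outside the segments was -0.07, with 58.8% below 0, and that of all expressed genes -0.06. Both menin-null arrays lay below both wt arrays for 27 genes and above them for 4, against 30% and 24.7% of all genes. Most of the 44 genes were expressed. Of all 12062 expressed genes, 4773 were lower and 2487 higher without overlap. By the adjusted p in the fit on all 8 arrays, 751 of them fell and 371 rose.

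The markers of undifferentiated cells moved with genotype in PILECs. Of 5 mESC markers, 4 fell in menin-null PILECs (Pou5f1, Nanog, Zfp42 and Tdgf1), with a median of -0.81 over the 5, and their mean per array was 8.39 to 8.51 in menin-null and 9.05 to 9.22 in wt PILECs. The mean of 5 fibroblast markers was 10.77 to 11.14 in menin-null and 10.87 to 11.001 in wt PILECs, with 1 higher (Thy1, 1.01) and 1 lower (Col1a2, -0.78). Of the 6 islet markers measured, 0 passed the test in either direction. The part of these cells in the differences given for PILECs was not tested.

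**Figure D4:**
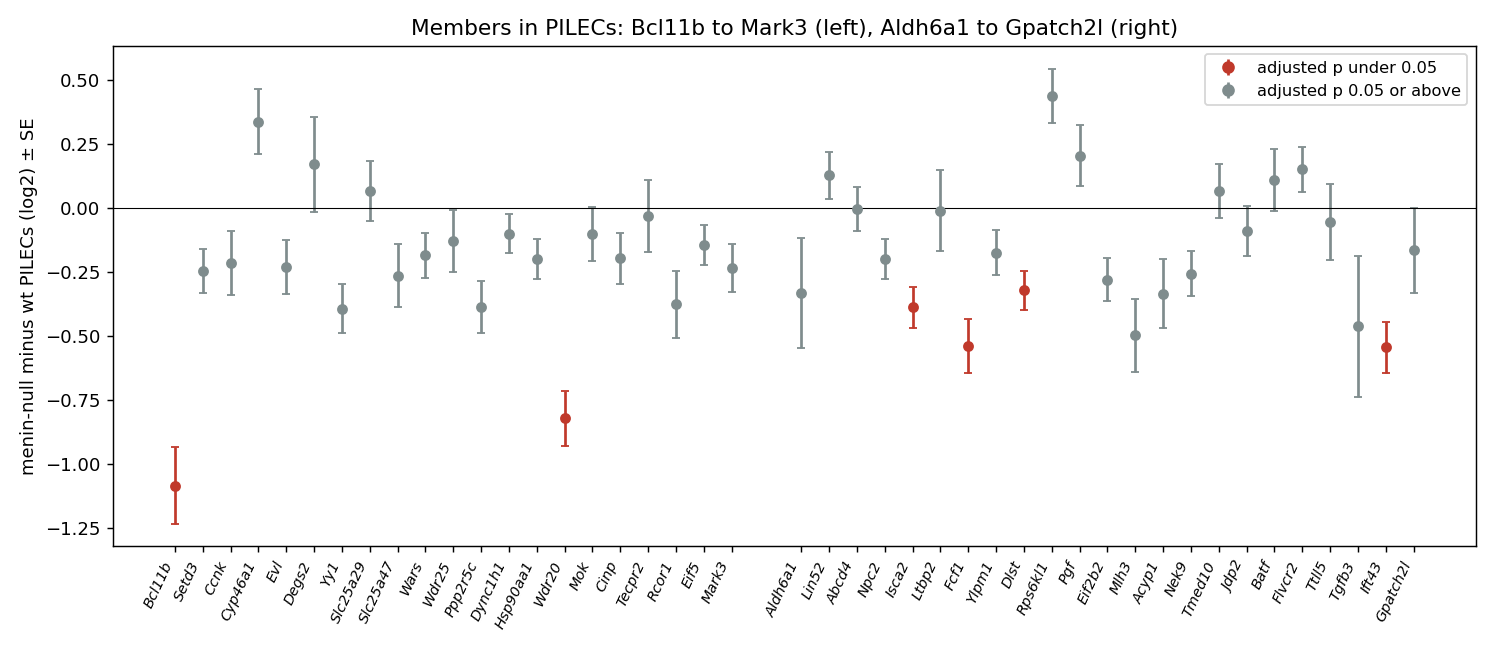
Menin-null minus wt difference in PILECs (log2, points) with its standard error from the limma fit (bars) for the 44 genes in chromosome order. The 6 genes with an adjusted p under 0.05 (red) are Bcl11b, Wdr20, Isca2, Fcf1, Dlst and Ift43, all below 0, and the bars of many other genes reach or cross 0.

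Among the transcription genes, Bcl11b fell. It had 9.71 and 10.05 in menin-null PILECs, against 10.94 and 10.99 in wt PILECs. The menin-null arrays lay well below the wt arrays, and the difference was -1.08 (SE 0.149, adjusted p = 0.00823 by limma), or 2.12-fold. Its 3 further probe sets differed by -0.94, -1.17 and -0.73. Bcl11b was also the 1 gene of the 44 that passed a 2-fold change with p under 0.005, taken here before adjustment, a cut-off modelled on that of the study, which 0.544% of all genes passed as lower and 0.83% in either direction. Yy1 had 10.86 and 10.99 in menin-null against 11.37 and 11.27 in wt PILECs, a difference of -0.39 just outside the threshold (SE 0.095, adjusted p = 0.0512 by limma).

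Wdr20 and the rRNA processing gene Fcf1 fell as well. Wdr20 had 7.82 and 7.99 in menin-null against 8.81 and 8.64 in wt PILECs, a difference of -0.82 (SE 0.108, adjusted p = 0.00733 by limma). Its 2 further probe sets, with means of 7.09 and 4.37 over all arrays, differed by -0.15 and -0.07, so the call rests on 1 of its 3 probe sets. Fcf1 had 10.04 and 10.16 in menin-null against 10.74 and 10.53 in wt PILECs, a difference of -0.54 (SE 0.105, adjusted p = 0.0266 by limma), and had 1 probe set. The other 4 genes of translation and folding were lower without overlap, as were 30% of all genes. They differed by -0.28 for Eif2b2 to -0.14 for Eif5 and did not pass.

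The cilium gene Ift43 and a pair of mitochondrial genes made up the rest. Ift43 had 8.98 and 9.10 in menin-null against 9.67 and 9.50 in wt PILECs, a difference of -0.54 (SE 0.0997, adjusted p = 0.0221 by limma). Isca2 had 10.49 and 10.47 in menin-null against 10.90 and 10.84 in wt PILECs, a difference of -0.39 (SE 0.0805, adjusted p = 0.0328 by limma). Its head-to-head partner Npc2 differed by -0.20 and did not pass. Dlst had 10.45 and 10.44 in menin-null against 10.75 and 10.78 in wt PILECs, a difference of -0.32 (SE 0.0773, adjusted p = 0.04999 by limma) at the very edge of the threshold, and its 3 further probe sets differed by -0.21, -0.06 and 0.01. The groups of arrays did not overlap for any of the 6 genes that fell. These genes were called on the same arrays, so this adds no support, and 30% of all genes were lower without overlap.

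Leaving out a single culture changed these calls. Without wt PILEC array 1, 0 of the 44 genes passed as lower. Without wt PILEC array 2 there was 1, and without menin-null PILEC array 1, menin-null PILEC array 2, wt mESC array 1 or wt mESC array 2 there were 2 each. Without either menin-null mESC array, 9 genes passed as lower and 1, Rps6kl1, as higher. The counts over all genes in these fits lay between 143 and 1622. In such fits the remaining single array is assumed to vary like the other groups. The fitted difference of Bcl11b stayed between -1.26 and -0.91 over all such fits and that of Wdr20 between -0.91 and -0.74.

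The genes that were highest in menin-null relative to wt PILECs did not pass the test. Rps6kl1 had 8.03 and 8.17 in menin-null against 7.72 and 7.61 in wt PILECs, a difference of 0.44 (SE 0.107, adjusted p = 0.0536 by limma). Cyp46a1 had 8.53 and 8.75 in menin-null against 8.42 and 8.18 in wt PILECs, a difference of 0.34 (SE 0.126, adjusted p = 0.158 by limma). Pgf differed by 0.20, Degs2 by 0.17, Flvcr2 by 0.15, Lin52 by 0.13, Batf by 0.11, Tmed10 by 0.07 and Slc25a29 by 0.06.

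Several genes with a large difference in mESCs had a smaller one in PILECs that did not pass the test. Tecpr2 had 8.76 and 8.76 in menin-null against 8.84 and 8.74 in wt PILECs, a difference of -0.03. Abcd4 differed by -0.01, Wdr25 by -0.13 and Cinp by -0.20 in PILECs. Aldh6a1 had 8.09 and 8.20 in menin-null against 8.53 and 8.42 in wt PILECs, a difference of -0.33 that did not pass (SE 0.213, adjusted p = 0.402 by limma). Mlh3 differed by -0.50 (SE 0.143, adjusted p = 0.0843 by limma), and Ppp2r5c by -0.39 (adjusted p = 0.067). Across the 44 genes the PILEC and mESC differences correlated with r = 0.45 and rho = 0.52, against r = 0.15 over the 374 expressed genes outside the segments. The points of these descriptions share their cell lines and platform, and the 44 genes were chosen on the mESC axis. Both differences also varied with signal level. The median PILEC difference was -0.23 for genes with a wt mESC mean of 8 or more. It was 0.06 for those from 7 to 8 and 0.07 for those under 7.

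The remaining genes lay between -0.46 for Tgfb3 and -0.01 for Ltbp2 in PILECs, and 0 of them passed.

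Between PILECs and mESCs the genes had no common direction, and the mESC arrays had entered the choice of the genes, so no test is given. The median PILEC minus mESC difference was 0.23 in menin-null and -0.12 in wt cells, with 16 genes of 44 below 0 in menin-null and 26 in wt cells. Over the 374 expressed genes outside the segments it was -0.23 in menin-null and -0.24 in wt cells. The menin-null value of these medians contains the lower mESC signal described above.

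The genes more than 2 apart between wt PILECs and wt mESCs were Bcl11b, Evl, Tgfb3 and Mlh3. Bcl11b was 2.82 higher in PILECs than in mESCs in menin-null and 3.09 higher in wt cells (log2). Evl had 12.08 and 12.20 in menin-null PILECs and 8.73 and 9.01 in menin-null mESCs. In wt cells Evl had 12.37 in both PILEC arrays and 9.61 and 9.65 in mESCs, a difference of 2.74. Tgfb3 had 7.63 and 7.12 in menin-null PILECs and 6.17 and 5.33 in menin-null mESCs, and 7.79 and 7.88 in wt PILECs against 5.11 and 5.43 in wt mESCs, a difference of 2.57. Mlh3 went the other way in both genotypes. It had 6.61 and 6.51 in menin-null PILECs and 8.06 and 8.46 in menin-null mESCs, and 7.19 and 6.93 in wt PILECs against 9.10 and 9.10 in wt mESCs, a difference of -2.04. Cyp46a1 (1.78) and Tmed10 (1.44) were next among those higher in wt PILECs, and Fcf1 (-1.43) and Wdr25 (-1.23) among those lower.

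**Figure D5:**
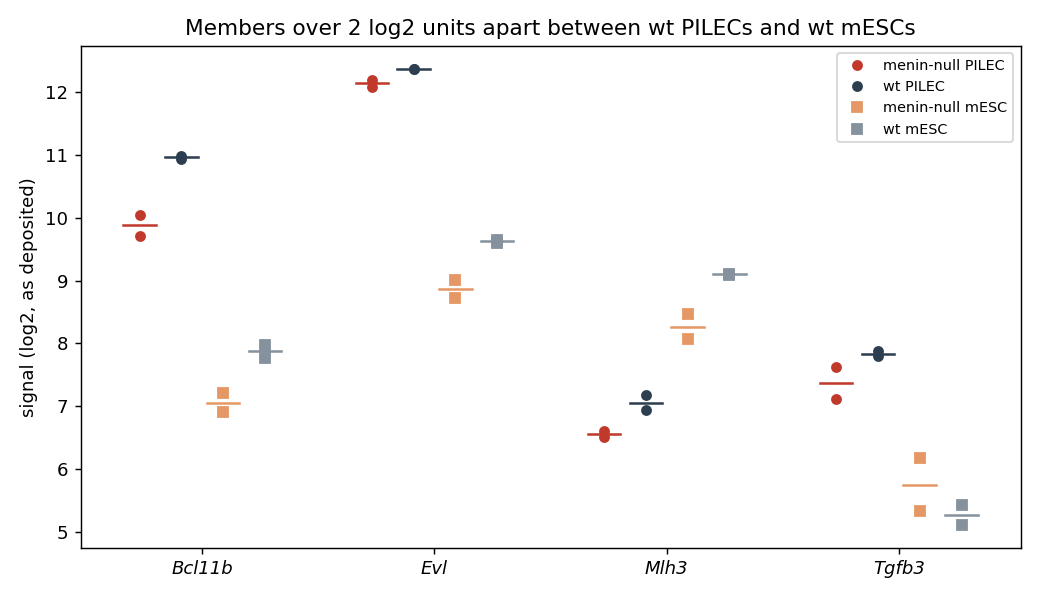
Log2 signal per array (points) and group mean (lines) of the 4 genes that differed by more than 2 between wt PILECs and wt mESCs, in the order menin-null PILECs, wt PILECs, menin-null mESCs, wt mESCs. Bcl11b, Evl and Tgfb3 are higher in PILECs of both genotypes and Mlh3 is lower, and only for Tgfb3 do the menin-null and wt points overlap in mESCs.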

How the data were processed

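The values were the log2 signals per probe set and array deposited by the authors, 1 column per array, between 3.26 and 15.2 with medians of 6.72 to 6.86. RMA and Partek appear in the submitters' notes on processing, the methods name the Affymetrix Microarray Analysis Suite, and versions and genome build are not given in the sources used here, so which of them made the values is unknown. RNA input was 6 µg per sample. Of 45101 probe sets, 34945 with 1 gene symbol in the platform annotation were used and each gene was read from one of them (the highest mean over the 8 arrays), giving 18193 genes. The 64 controls, 932 with several symbols and 9160 with none were left out. Gene order, promoters and strands came from RefSeq (assembly GRCm38.p6).

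Groups and replicate numbers came from the sample titles. Group means of all 8 arrays were fitted by limma 3.58.1 (R 4.3.3, data.table in its version 1.17.8), with variances moderated by eBayes (degrees of freedom: 4 residual, 3.72 prior), and p-values for menin-null minus wt PILECs were adjusted by Benjamini-Hochberg over 18193 genes. The fit was tested on simulated data. Figures were drawn with matplotlib 3.10.9 and pandas 2.3.3 in Python 3.11.15. The number of arrays limits the precision, and the smallest p of an exact permutation test of 2 against 2 is 0.333, so none was used.

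The genes and lists were chosen with earlier results of these data known. Array-by-array values are given for the 5 genes lowest and 3 highest in mESCs per segment, those called in PILECs, those more than 2 apart between wt PILECs and wt mESCs, and the ends of the segments. The array values of Hsp90aa1, Rps6kl1, Fos and Ankrd9, outside that rule, and the head-to-head promoter pairs were chosen after their values were seen. Alternatives were quantile normalization, the mean of all probe sets, leaving out probe sets with an s, x or a suffix (designs that can match several transcripts or genes), a minimum level of 7, the PILEC arrays alone, a replicate block, no moderation or a trend in eBayes, a 2-fold change with unadjusted p under 0.005, means in place of medians, and leaving out each array.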

Additional observations from a re-analysis of the deposited data

Results flagged for a closer look

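The arrays of Rps6kl1 moved in opposite directions in the 2 cell types: both menin-null arrays were above both wt arrays in PILECs (difference 0.44) and below them in mESCs (-0.36). Flvcr2, whose group means were all under 7, showed the same pattern with 0.15 in PILECs and -0.22 in mESCs. For neither gene was the difference between the cell types tested, because the mESC arrays had entered the choice of the genes. Over all genes, 24.7% were higher without overlap in PILECs and 24.9% were lower without overlap in mESCs. The share of all genes with both was not counted, so the pattern is not shown to be unusual.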

How the results depend on the processing

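Against 6 genes of the segments that fell in menin-null PILECs, 3 did once probe sets with an s, x or a suffix were left out (37 genes measured), 3 with a replicate block, 1 without moderation of the variances, 14 with a trend in eBayes and 1 by a 2-fold change with unadjusted p under 0.005, and 0 to 9 when single arrays were left out. Against 0 that rose, 1 did after quantile normalization, with the mean of all probe sets, with a minimum level of 7, with a crossed block or with a trend, and 0 to 1 with single arrays left out, Rps6kl1 in each case. Against 1216 of all genes called, there were 734 with the block, 356 without moderation, 2383 with a trend, 151 by the 2-fold cut-off and 143 to 1622 with single arrays left out. The replicate numbers are only shared: deviations of same-numbered menin-null and wt PILEC arrays correlated at -0.23. Of the 6 calls, 3 were kept with the block, 4 with a block on the PILEC arrays alone and 5 with its numbers crossed, an alternative chosen after seeing the data.

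The median PILEC difference was -0.16 (quantile), -0.13 (no s, x or a) and -0.23 (mean) for the first segment, -0.089 (no s, x or a) for the second, and -0.21 to -0.18 and -0.21 to -0.16 with single arrays left out. In mESCs it was -0.63 (quantile), -0.49 (mean of probe sets), -0.585 (no s, x or a), -0.59 (mean) and -0.67 to -0.61 for the first, and -0.43, -0.44 and -0.485 (mean of probe sets; no s, x or a; mean) and -0.66 to -0.54 for the second.

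Some genes that did not pass the test in PILECs changed sign. With quantile normalization Tecpr2 was at 0.038 and Abcd4 at 0.037, with the mean of probe sets Abcd4 at 0.0995 and Slc25a29 at -0.16, and with no s, x or a Abcd4 at 0.20 and Cinp at 0.066. With single arrays left out, Tecpr2 lay between -0.080 and 0.0185, Abcd4 between -0.043 and 0.032, Slc25a29 between -0.076 and 0.20, Wdr25 between -0.31 and 0.054, Ltbp2 between -0.088 and 0.067 and Gpatch2l between -0.41 and 0.076. The 6 called genes kept their direction throughout. Dlst lost its call in 13 of 18 alternatives, Fcf1 in 8 of 18, and Bcl11b and Wdr20 in 3 of 18 each. Isca2 and Ift43 were not measured once s, x or a probe sets were left out. They lost their calls in 10 and 7 of the other 17. Without moderation of the variances Dlst alone of the 6 kept its call. The causes were not tested. With 2 arrays a group and dim probe sets near 7, small differences are beyond the precision of these data.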

Other observations

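Of the other genes inside the segments, outside the list of 45 and apart from Dlk1, Meg3, Rian and Mirg, some were lower in menin-null mESCs, others not. The lowest were named after their values were seen: Arel1, a ubiquitin ligase gene, differed by -0.86, Zfp839 by -0.80, Amn, an intestinal and renal cobalamin receptor subunit, by -0.79, Erg28, of sterol synthesis, by -0.75, and Cdc42bpb, a CDC42-binding kinase, by -0.65. In the first segment 10 of 19 such genes (52.6%) were below 0, against 48.5% of all genes, with a median of -0.09, and 8 of the 19 reached a mean of 7. In the second 6 of 7 (85.7%) were below 0, with a median of -0.45, and 3 of the 7 reached 7. In PILECs 2 of these genes, 1 in each segment, fell, where 4.42% of all genes fell: Fos, an immediate early AP-1 gene, which had 8.87 and 8.998 in menin-null against 9.87 and 10.00 in wt PILECs (difference -1.003, adjusted p = 0.0304 by limma), and Ankrd9, which had 6.31 and 6.40 in menin-null against 7.05 and 6.74 in wt PILECs (difference -0.54, adjusted p = 0.0331 by limma). In mESCs the Fos arrays overlapped (difference -0.45). Of these other genes in the first segment, Zfp839, Amn, Cdc42bpb and Ankrd9 (-0.38) had a wt mESC mean of 8 or more. All of them were lower in menin-null mESCs without overlap. In the second segment the genes at that level were Arel1 and Erg28, lower without overlap, and Fos.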
